A study of Mus musculus with 419 samples.

Results

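The genes described are those of the cytosolic ribosome, the particle that translates nuclear-encoded mRNA into protein. They were chosen by symbol: Rpl or Rps followed by a number, with an optional a, x, y or l and digits, plus Rplp0, Rplp1, Rplp2 and Rpsa, and without symbols ending in -ps. The rule found 89 genes of the 55487 in the count table, 53 of the large and 36 of the small subunit. GENCODE annotated 83 of them as protein coding and 6 as pseudogenes (Rpl32l, Rpl6l, Rps12l1, Rps3a2, Rps3a3 and Rps4l). Between 82 and 87 of the 89 had enough counts to be tested in each tissue.

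The counts came from bulk poly(A) RNA-seq of mice of the CBA/CaJ strain. They served as a model of REDs, the shortfall of energy in athletes whose food intake does not cover what exercise uses. Energy-sufficient animals (Control) and energy-deficient animals (Deficient) of both sexes were sampled at ZT05 and ZT17, which are 5 and 17 hours after lights on. The 419 libraries covered 19 tissues, with 3 replicates planned for each tissue, sex, treatment and time, so that most treatment comparisons within a sex were 6 libraries against 6. Ages, and how the deficit was imposed, are not stated in the labels. The labels name no genetic change, and all groups are 1 inbred strain.

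The library names carried animal numbers. The females (12 animals) and 12 males were numbered 31 to 62, and another 12 males were numbered 73 to 94. Tibialis anterior, extensor digitorum longus (EDL), soleus, kidney, adrenal gland and 2 of the 3 tendons came from males of the higher numbers only, so in those tissues sex and number series cannot be told apart. Total counts ran from 5777450 to 53598697 per library, with a median of 17426150. In 58 libraries more than 50% of the reads counted fell on mitochondrial or rRNA-like genes. Marker lists for the labelled tissues were highest in their own tissue or, for muscle and tendon, in a tissue of that type. The exception was the ovary list. Its summed level was higher in uterus (158.5 CPM, counts scaled to a common library total) than in ovary (111.5 CPM). In gastrocnemius tendon the Control medians of tendon and fibroblast markers were 1643 CPM in females and 1901 in males. They were higher in soleus (1976 and 2168) and lower in tibialis anterior (810.3 and 294.6). Skeletal muscle markers in gastrocnemius tendon had Control medians of 84910 and 84780 CPM, against 77260 and 135500 in tibialis anterior.

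Each cytosolic ribosome holds a single copy of nearly every ribosomal protein, and the genes encoding them are therefore transcribed and translated at matched rates. Their mRNAs begin with a short run of pyrimidines (C or T in the DNA), the 5′ terminal oligopyrimidine or TOP motif, through which the nutrient-sensing kinase complex TORC1 controls their translation. A few have paralogs used in particular tissues: Rpl3l replaces Rpl3 in striated muscle, and Rpl10l and Rpl39l stand in for X-linked genes in male germ cells, where the X chromosome is silenced. Rpl7l1 is a relative of Rpl7 whose protein acts in the assembly of the large subunit in the nucleolus.

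The start of the transcript is shown for 10 genes, because the TOP motif lies there and because these genes carry the results below. The windows run from 10 bases before to 20 bases from the RefSeq start (GRCm38.p6), 5′ to 3′ on the gene's strand, with the longest run of C and T in capitals. Rps27, Rpl4 and Rps25 rose in tibialis anterior, EDL and soleus of both sexes, Rpl27a, Rpl35 and Rpl15 had the longest or near-longest runs, and the last 4 are paralogs.
Rps27 (chr3:90213629-90213658, minus strand): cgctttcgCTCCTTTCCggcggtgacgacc
Rpl4 (chr9:64173377-64173406, plus strand): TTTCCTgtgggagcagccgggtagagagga
Rps25 (chr9:44407704-44407733, plus strand): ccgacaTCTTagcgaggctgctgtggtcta
Rpl27a (chr7:109519185-109519214, plus strand): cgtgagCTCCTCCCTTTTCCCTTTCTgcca
Rpl35 (chr2:39005112-39005141, minus strand): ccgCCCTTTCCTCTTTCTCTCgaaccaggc
Rpl15 (chr14:18270967-18270996, minus strand): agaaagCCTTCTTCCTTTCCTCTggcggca
Rpl3l (chr17:24727816-24727845, plus strand, first of 2 annotated starts): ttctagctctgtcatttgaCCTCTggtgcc
Rpl10l (chr12:66284382-66284411, minus strand): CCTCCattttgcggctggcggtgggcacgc
Rpl39l (chr16:10170218-10170247, plus strand): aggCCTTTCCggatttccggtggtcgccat
Rpl7l1 (chr17:46782637-46782666, minus strand): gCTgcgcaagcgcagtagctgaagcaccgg

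The run was 20 bases long in Rpl27a, 18 in Rpl35 and 17 in Rpl15, against 9 in Rps27, 6 in Rpl4 and 2 in Rpl7l1. Of the 89 genes, 64 matched a RefSeq start by symbol. A run of at least 8 C or T bases on the gene's strand lay in the window of 25 of these 64 (39.1%), against 13.0% of the 27025 genes in the same table. The match describes these letters only, since annotated starts can miss the first transcribed base.

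Levels were first compared across tissues as the share of counts taken by the 89 genes, out of all counts outside mitochondrial and rRNA-like genes. In females the share was highest in spleen (7.08% to 8.85% over 12 libraries), followed by uterus (4.72% to 7.71%) and ovary (3.67% to 5.51%). It was lowest in liver (0.89% to 1.37%). The limb muscles lay near the bottom, at 1.40% to 1.92% in tibialis anterior and 1.83% to 2.17% in soleus. Over all libraries of both sexes, spleen had the highest median level for 82 of the 89 genes, whereas the lowest was in tibialis anterior for 35, testis for 32 and liver for 17. Liver males were all numbered 31 to 62 and tibialis anterior males all 73 to 94, so this order of the lowest tissues mixes tissue with number series. In bulk RNA, more cells rich in ribosomal mRNA and more such mRNA per cell cannot be told apart.

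The share also moved with the animal numbers. Spleen libraries of males 31 to 62 had 14.6% to 21.7% of counts in the 89 genes, and the 1 spleen library of the higher-numbered males had 7.38%. In heart the males 31 to 62 had 4.83% to 7.21%, against 1.77% to 2.46% in females. Quadriceps showed the same split within 1 sex, with 3.87% to 6.97% in 9 males 31 to 62 and 1.32% to 1.91% in 3 males 73 to 94. The libraries of males 31 to 62 held more mitochondrial and rRNA-like counts in most tissues, such as 61.7% to 77.6% in their hearts against 22.4% to 31.0% in females. Testis came from males 31 to 62 only, so it had no other animals to compare with, and held 1.05% to 2.16%. The part of RNA quality or library composition in these levels was not tested, and no level given below was tested between the sexes.

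**Figure D1:**
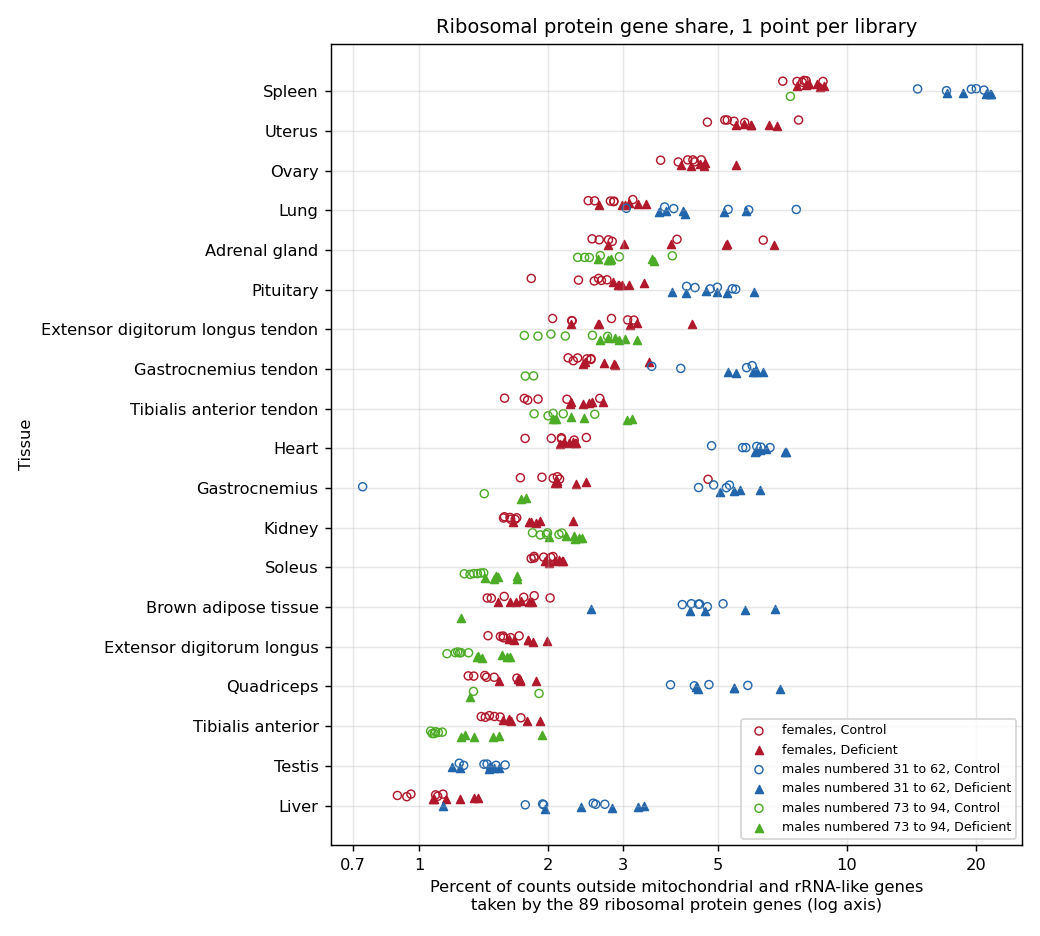
Share of counts outside mitochondrial and rRNA-like genes (percent, log axis) taken by the 89 ribosomal protein genes, 1 point per library, by tissue. Tissues are ordered by the median of females and males 73 to 94 together, and testis by that of its males 31 to 62. Circles are Control and triangles Deficient libraries, and colour separates females, males numbered 31 to 62 and males numbered 73 to 94. Spleen is highest in each colour and the males numbered 31 to 62 lie to the right of the other animals in most tissues.

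Per kilobase of transcript, the highest median level over tissues was that of Rps12 (1984 CPM per kilobase), followed by Rps27 (1196) and Rps15 (1070), all of the small subunit. This order depends on the 1 annotated transcript taken for each gene, from 345 bases for Rps27 to 5130 for Rps15a. Without division by length the highest were Rps12 (979.9 CPM), Rpl4 (934.9) and Rps24 (785.6). At the other end, Rps10 (1.67), Rpl24 (0.730) and Rpl13a (6.53) were near zero although each ribosome carries their products. These genes share sequence with annotated neighbours or copies: 51.8% of the 50-base stretches of the Rps10 transcript also lie in other genes, most in RPS10-NUDT3, 81.7% for Rpl24 (most in Gm28037) and 57.4% for Rpl13a (most in Gm45713). Their levels are therefore uncertain. Over the 89 genes the median shared part was 52.3%, with 48 genes above 50% and 6 above 90%. Rps12 (90.1%) and Rps27 (98.6%) were among the 6. Reads could thus be split between a gene and its pseudogenes. Rpl39l and Rpl3l were among those that shared none.

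The striated muscle paralog Rpl3l (GRCm38 chromosome 17, 24727820 to 24736143, plus strand) made up most of the Rpl3l and Rpl3 pair in limb muscle. Rpl3 itself lies on chromosome 15, 80077791 to 80091868. Per kilobase of transcript, Rpl3l was at a median of 371.2 CPM in tibialis anterior and Rpl3 at 31.9, which gave Rpl3l 92.5% of the pair (87.7% to 95.6% over 24 libraries). The share was 91.8% in EDL, 84.5% in gastrocnemius, 80.2% in quadriceps and 79.6% in soleus. These medians pool the sexes, and the slow soleus was last in females only: Control medians were 72.5% in females and 85.8% in males, against 80.9% and 76.7% in quadriceps and 85.0% and 84.3% in gastrocnemius. The range of soleus (64.7% to 87.1%) overlapped those of quadriceps (61.0% to 90.1%) and gastrocnemius (76.2% to 90.2%). The tendon samples held 68.6% to 79.5% at the median, and every other tissue except heart was below 1%.

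Heart expressed both genes, in proportions that differed between the 2 sets of animals. Rpl3l took 45.6% to 58.9% of the pair in females and 9.93% to 24.6% in males, all of which were numbered 31 to 62. Rpl3 in male hearts was at 422.7 to 846.2 CPM, against 156.0 to 248.9 in female hearts, while Rpl3l was at 79.7 to 174.0 and 196.6 to 260.6. Treatment moved neither gene detectably in limb muscle. In tibialis anterior of Control females Rpl3l lay at 471.7, 514.9 and 537.8 CPM (lowest, median, highest) and in Deficient females at 403.6, 449.7 and 534.4, with ranges that overlapped. Its log2 fold changes ran from -0.12 to 0.14 over the 6 sex and muscle comparisons (adjusted p 0.313 to 0.976, edgeR's quasi-likelihood test).

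Testis used a different set. Rpl10l (chromosome 12, 66283379 to 66284401), an autosomal retrogene of X-linked Rpl10, was at 99.5, 115.3 and 122.3 CPM in Control testis and at 89.9, 107.5 and 124.0 in Deficient testis, and per kilobase it made up 67.3% of its pair (58.8% to 69.9%). Rpl39l (chromosome 16, 10170226 to 10174911) was at 294.6, 358.0 and 457.2 in Control and 303.0, 354.1 and 394.6 in Deficient testis, or 94.1% of the pair with X-linked Rpl39. Rps4l (chromosome 6, 148354656 to 148355598), annotated as a transcribed processed pseudogene, made up 81.0% of its pair with X-linked Rps4x (66.0% to 85.6%). Control and Deficient ranges overlapped for all of these genes.

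Per kilobase Rpl10l had a median of 0 CPM in each other tissue. Rpl39l had medians of 0 to 1.43, except in brown adipose tissue, where it was at 2.55 to 21.5 and took up to 5.48% of its pair. The X-linked partners had their lowest level in testis. Per kilobase Rpl10 was at a median of 54.8 CPM there and 1881 in spleen, Rpl39 at 28.9 and 1105, and Rps4x at 21.5 and 3045. Rpl22l1, the autosomal paralog of Rpl22, also reached its highest share of the pair in testis, at 43.3%. The treatment differences in testis did not pass edgeR's quasi-likelihood test, with log2 fold changes of -0.12 for Rpl10l (adjusted p = 0.56), -0.10 for Rpl39l (0.711) and -0.36 for Rps4l (0.295).

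**Figure D2:**
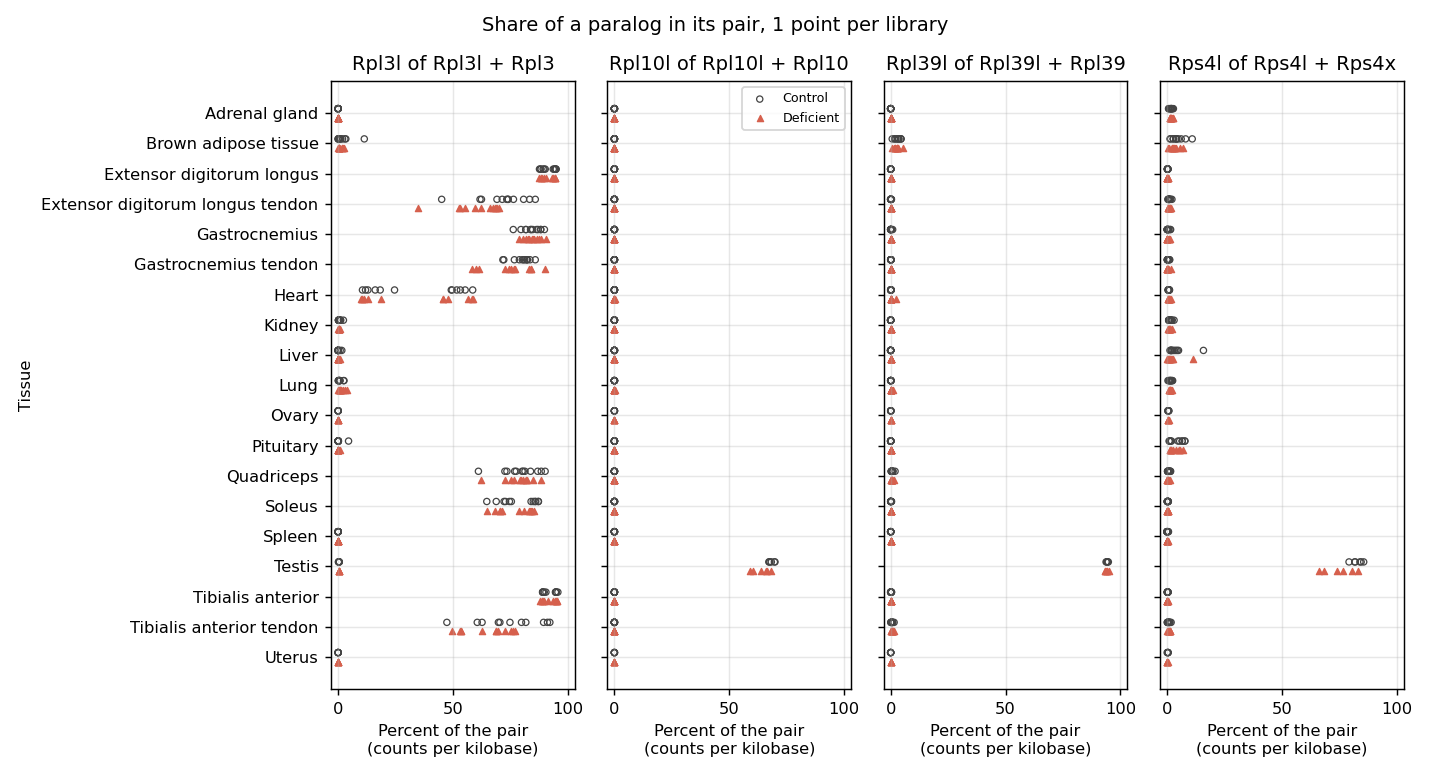
Percent of each pair taken by the paralog, from counts per kilobase of transcript, 1 point per library, for Rpl3l with Rpl3, Rpl10l with Rpl10, Rpl39l with Rpl39 and Rps4l with Rps4x over 19 tissues. Circles are Control and triangles Deficient libraries. Rpl3l dominates in limb muscle, splits heart libraries into 2 sets, and the other 3 paralogs exceed 50% of their pair in testis alone.

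Energy deficiency was compared with Control within each sex, tissue by tissue, on counts scaled by TMM, edgeR's normalization on the bulk of genes. Ribosomal protein mRNAs rose in the hindlimb muscles tibialis anterior, EDL and soleus, in both sexes, with counts of calls that depended on the libraries in the fit. Counting each member once per tissue, 1531 tests in females gave 91 rises and 14 falls (4.93% and 5.29% of the tests of all genes), and 1448 tests in males gave 199 and 13 (3.09% and 3.16%). No member passed the test in 12 of 18 female and 9 of 17 male tissues. The median log2 fold change of the tested members was above 0 in 15 of 18 female and 12 of 17 male tissues. The p-values measure the spread between these animals' libraries.

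In males, tibialis anterior showed the broadest change, with 71 of the 84 tested members higher in Deficient mice and none lower, against 5.79% of all tested genes called higher. The members' median log2 fold change was 0.43 and that of all genes 0.00. The 89 genes took 1.06% to 1.13% of counts in Control and 1.26% to 1.94% in Deficient males, without overlap. In male EDL 46 of 84 members rose and none fell (6.67% of all genes rose), with a median of 0.23, and in male soleus 41 of 85 rose and none fell (4.39% of all genes), also with a median of 0.23. Their shares did not overlap between treatments either, at 1.16% to 1.30% and 1.37% to 1.63% in EDL and 1.27% to 1.42% and 1.43% to 1.70% in soleus. Mitochondrial and rRNA-like counts moved with treatment in male soleus, from 14.5% to 16.7% in Control to 11.1% to 13.1% in Deficient libraries. With library totals outside these genes 35 members rose there.

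Females changed in the same 3 muscles, in fewer members and against a larger background. In tibialis anterior 22 of 84 members rose and 2 fell, where 15.6% of all genes rose and 15.1% fell. In EDL 34 of 84 rose and 1 fell (16% of all genes rose and 16% fell), and in soleus 32 of 85 rose and 1 fell (12.1% rose and 9.48% fell). The member that fell in all 3 was Rpl7l1, and the other in tibialis anterior was the low-count gene Rps4l (-0.93). The members' medians were 0.15, 0.15 and 0.17 and the all-gene medians 0.00, 0.00 and 0.03. Control and Deficient shares overlapped in the 3 female muscles. Mitochondrial and rRNA-like counts were 17.3% ± 1.28 in Control and 22.5% ± 6.13 (SD, n = 6) in Deficient female tibialis anterior, and their part was not tested. In female soleus the library of Deficient ZT05 replicate 3 stood apart, with skeletal muscle markers at a sum of 79570 CPM against 21920 to 33640 in the other 11, and heart markers at 551 against 1343 to 1881. The difference between the sexes was tested directly. In tibialis anterior the female minus male response was below 0 for 80 of 84 members (median -0.26), and none passed in edgeR (37 at an unadjusted p under 0.05, and 8 called by DESeq2). In EDL and soleus none passed either (6 and 3 unadjusted, and none by DESeq2).

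Subunits were set side by side in the same muscles, without a test of their difference. In male tibialis anterior the median log2 fold change was 0.43 for 49 large subunit and 0.43 for 35 small subunit members, and in female soleus it was 0.16 and 0.19. A group of 7 members rose in all 6 sex and muscle comparisons: Rpl14, Rpl22, Rpl23, Rpl4, Rps23, Rps25 and Rps27. Of all genes tested in the 3 muscles 0.965% did so. The count was 8 for the 3 female comparisons (6.19% of all genes) and 34 for the 3 male ones (1.42%), and 62 members had a positive log2 fold change in all 6 (20.5%). Another 14 members were called higher in none, most of them paralogs or low-count genes: Rpl10l, Rpl13a, Rpl22l1, Rpl24, Rpl3, Rpl32l, Rpl39l, Rpl3l, Rpl6l, Rpl7l1, Rplp1, Rps10, Rps27l and Rps4l. They include members with too few counts for a test in these muscles, such as Rpl10l, which was tested in 1 tissue only. The share of all genes called higher in none was not counted.

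**Figure D3:**
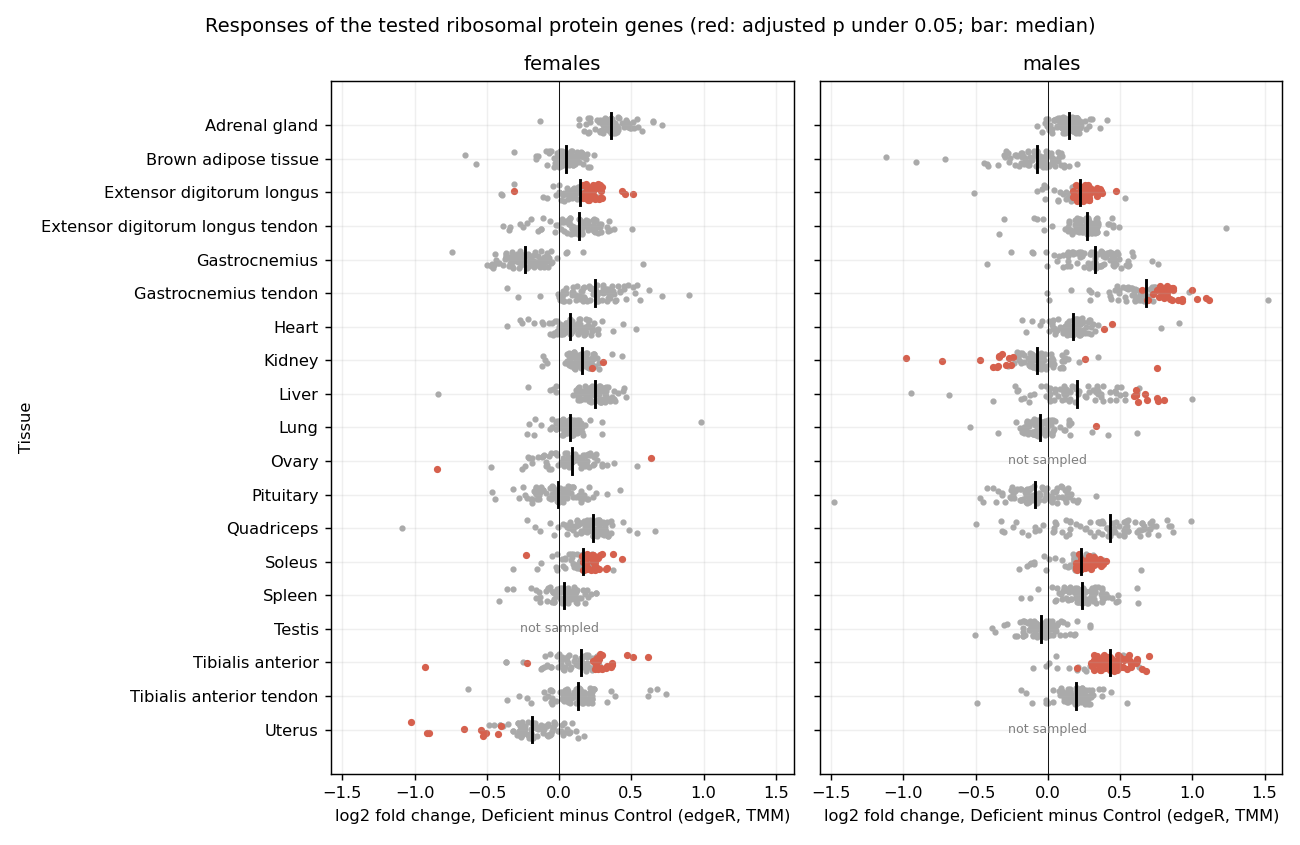
Log2 fold change (Deficient minus Control, edgeR) of each tested ribosomal protein gene by tissue, for females (left) and males (right). Each point is a gene, red points passed an adjusted p of 0.05, and the black bar is the median over members. Most red points lie to the right of 0 in tibialis anterior, EDL and soleus of both sexes and to the left in female uterus and male kidney.

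Rps27 (chromosome 3, 90212522 to 90213651, minus strand), a small subunit protein with a zinc finger, had the largest called rise in 5 of the 6 sex and muscle comparisons and the third largest in female EDL. In tibialis anterior it lay at 110.5, 128.3 and 160.6 CPM in Control females and at 159.2, 190.6 and 257.6 in Deficient females, ranges that touched at 1 library. The log2 fold change was 0.62 ± 0.12 (SE, adjusted p = 0.000661, edgeR's quasi-likelihood test). Males went from 86.4, 98.5 and 106.5 CPM to 129.3, 148.8 and 242.6 without overlap (0.70 ± 0.12, adjusted p = 0.000977).

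Rps27 showed the same order in EDL and soleus. In EDL the females moved from 120.3, 148.2 and 164.5 CPM to 173.7, 195.6 and 237.8 (0.44 ± 0.08, adjusted p = 0.00031). EDL males moved from 99.6, 108.2 and 132.5 CPM to 137.9, 148.0 and 180.4 (0.47 ± 0.08, adjusted p = 0.00073). In soleus the females moved from 174.0, 194.7 and 224.6 CPM to 240.9, 253.3 and 316.2 (0.43 ± 0.08, adjusted p = 0.0012, edgeR). All 6 Deficient libraries lay above all 6 Control libraries in these comparisons and in soleus males (113.0 to 128.8 CPM against 136.4 to 179.6).

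Beyond limb muscle, Rps27 was also higher in Deficient ovary (0.64, adjusted p = 0.0166, edgeR), male heart (0.39, adjusted p = 0.0451) and male gastrocnemius tendon (1.12, adjusted p = 0.0242). The heart call held in 3 of 7 alternatives and the ovary call in 6 of 6. Both were lost in each of the 3 fits without a replicate number. Its log2 fold change was positive in 18 of 18 female and 16 of 17 male tissues. Of the 50-base stretches of the Rps27 transcript 98.6% also occur in other genes, most in the near-identical Rps27rt, so how the reads were split between these copies is uncertain.

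Rpl4 (chromosome 9, 64173375 to 64178666, plus strand), a core protein of the large subunit's exit tunnel, is long and shares only 16.5% of its stretches with other genes. It separated the treatments completely in all 6 comparisons. In tibialis anterior it was at 435.9, 446.5 and 502.1 CPM in Control females and 520.6, 583.8 and 681.0 in Deficient females (0.36 ± 0.07, adjusted p = 0.000816, edgeR). Males were at 575.0, 597.2 and 610.2 CPM and at 662.4, 764.0 and 875.0 (0.36 ± 0.07, adjusted p = 0.00292). The rise was smaller in EDL (0.24 in females and 0.29 in males) and soleus (0.32 and 0.29), each with non-overlapping ranges such as 626.7 to 724.4 against 741.2 to 931.2 CPM in female soleus.

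Rps25, a small subunit protein needed by some viral internal ribosome entry sites, was at 198.0, 220.0 and 250.7 CPM in tibialis anterior of Control females and at 257.8, 312.7 and 391.8 in Deficient females. The log2 fold change was 0.51 ± 0.11 (adjusted p = 0.00108, edgeR), and the ranges did not overlap. Rps25 rose by less in female soleus (0.34) and in male EDL (0.38). Rpl22, which binds RNA outside the ribosome as well, rose by less than the other 3 genes described here in this muscle, at 87.8, 94.5 and 101.2 CPM in Control and 102.1, 114.7 and 132.7 in Deficient females of the same muscle (0.30, adjusted p = 0.00614). In EDL of both sexes and in male soleus its ranges overlapped, with log2 fold changes of 0.19 to 0.24.

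Other leading members depended on the comparison. In male tibialis anterior Rps20 rose from 106.9, 119.3 and 123.8 CPM to 149.6, 175.2 and 293.9 (0.68 ± 0.11, adjusted p = 0.000479, edgeR), and Rps21 by 0.65 with ranges that overlapped slightly. In females Rpl30 was prominent, from 121.1, 136.6 and 154.7 CPM to 159.5, 189.8 and 223.4 in tibialis anterior (0.47, adjusted p = 0.002). Female EDL was led by Rpl36 (0.51, adjusted p = 0.049) and the stalk protein gene Rplp2 (0.45, adjusted p = 0.00955), both with overlapping ranges. In male soleus Rps28 rose by 0.37.

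The counts of calls depended on single libraries. In female tibialis anterior the 22 became 10 to 14 without Control ZT05 replicate 1 (14) or 3 (12), Control ZT17 replicate 2 (10), Deficient ZT05 replicate 1 (12) or Deficient ZT17 replicate 1 (10) or 3 (14). In female EDL the 34 became 21 without Control ZT17 replicate 2 and 20 without Deficient ZT17 replicate 1, and in male EDL the 46 became 23 without Deficient ZT05 replicate 2 and 27 without Deficient ZT17 replicate 3. In female soleus the 32 became 16 to 21 without Control ZT05 replicate 1 (17), Control ZT17 replicates 1 (17) or 3 (16), Deficient ZT05 replicates 2 (21) or 3 (20) or Deficient ZT17 replicate 3 (18).

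Male soleus was the least settled. Its 41 calls fell to between 17 and 27 without Control ZT05 replicates 1 (26) or 2 (27), Control ZT17 replicates 1 (26) or 3 (24), Deficient ZT05 replicate 2 (17) or Deficient ZT17 replicates 2 (24) or 3 (25), and rose to 65 without Deficient ZT05 replicate 3. Male tibialis anterior had between 65 and 75 with any 1 male library left out. It had 4 without all libraries of replicate number 2, which removed females as well as males from the fit. In each sex and muscle the lowest counts came from such fits without a replicate number, which hold fewer libraries, and are given in the closing sections. With library totals outside mitochondrial and rRNA-like genes in place of TMM, female soleus had 8 members higher, and with the sexes fitted separately it had 10. In female tibialis anterior Rps27, Rpl30, Rps25 and Rpl4 passed in edgeR under every alternative and with any replicate or library left out.

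In female tibialis anterior the members that rose were mostly those with less G and C in their transcripts. Split at the median of 51.8% G and C, 20 of 41 members at or below it rose and 2 of 39 above it, with median log2 fold changes of 0.25 and 0.06. Over 80 protein-coding members the response fell with G and C content in this comparison (Spearman's rho -0.63, Pearson's r -0.59), and rho was between -0.31 and 0.24 in the other 5. In male tibialis anterior 37 of 41 and 33 of 39 rose. Rplp1 and Rpl36, at 57.3% and 60.8% G and C, had log2 fold changes of -0.37 and -0.25 in females (adjusted p 0.139 and 0.425, edgeR) and 0.52 and 0.63 in males, none of which passed.

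Over all genes in female tibialis anterior the same correlation was -0.30, the lowest of the 6 comparisons, whose others lay between -0.09 and 0.15. The order of the members' responses in female tibialis anterior resembled female soleus (rho 0.76) but not male tibialis anterior (rho -0.05), which resembled female EDL (0.76) and male soleus (0.70). Comparisons of 1 sex in different muscles come from the same animals, and the points are genes measured in the same libraries. The part of library composition in this relation was not tested.

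**Figure D4:**
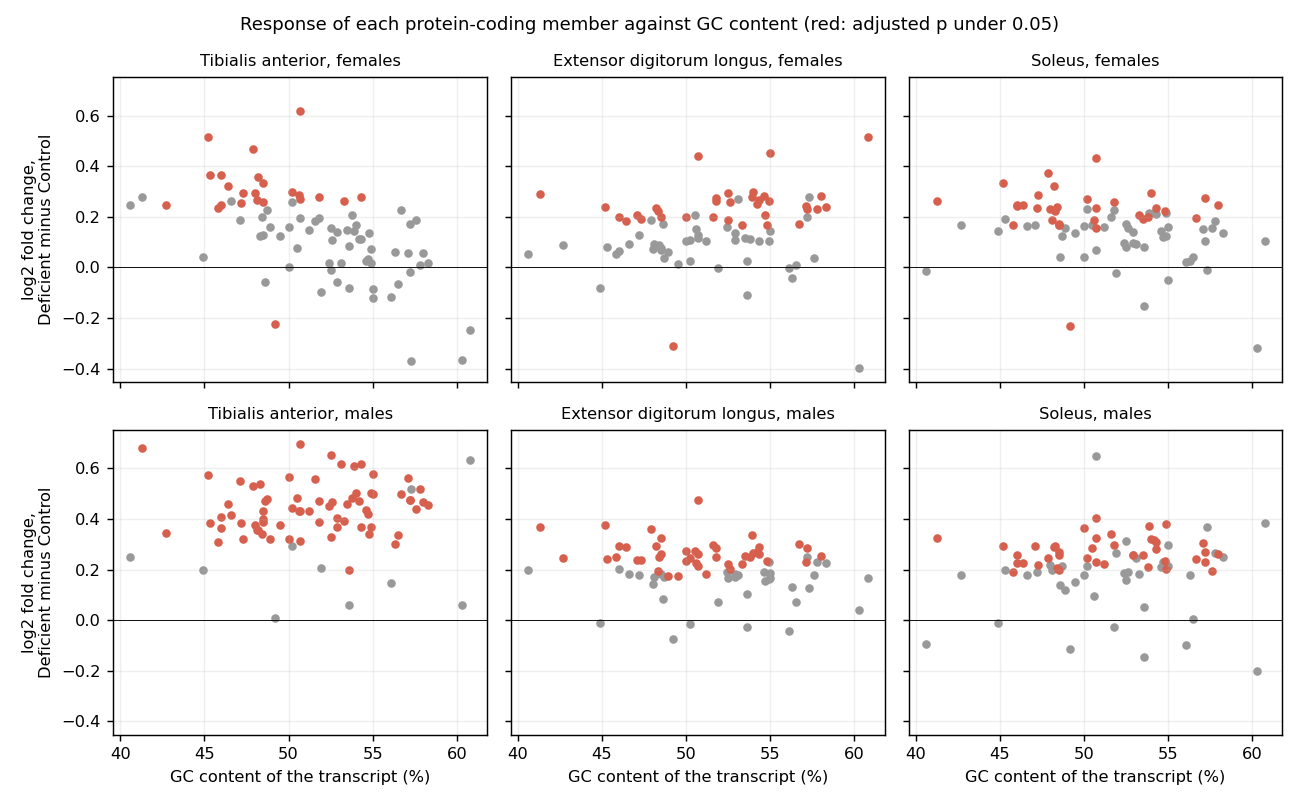
Log2 fold change (Deficient minus Control) of each protein-coding member against the G and C content of its transcript (percent), for females (top) and males (bottom) in tibialis anterior, EDL and soleus. Red points passed an adjusted p of 0.05. The points slope downward in female tibialis anterior (rho -0.63), while male tibialis anterior is high across the whole range.

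Genes that work with the ribosome were grouped in lists. Among 21 translation factors and other TOP mRNAs, 11 rose and 2 fell in tibialis anterior of females, 9 and 2 in EDL and 11 and 0 in soleus. Of all genes 15.6%, 16% and 12.1% rose there and 15.1%, 16% and 9.48% fell. In males the counts were 7 and 1, 6 and 2, and 4 and 0. Of all genes 5.79%, 6.67% and 4.39% rose in males and 5.35%, 6.27% and 5.5% fell. Eif3f, a subunit of the initiation factor that loads the small subunit, rose by 0.36, 0.41 and 0.45 in these female muscles and by 0.40 and 0.30 in male tibialis anterior and EDL. Pabpc1, the poly(A) binding protein and a TOP mRNA too, had lower levels in EDL of Deficient mice of both sexes (-0.17 in females, -0.23 in males). Eef1a1, which delivers tRNAs, was 0.17 lower in female tibialis anterior alone (adjusted p = 0.0292, edgeR).

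Of 43 ribosome assembly factors, between 7 and 12 rose in the female muscles and 3 or 4 in the male ones, and 2 fell in female EDL. As shares of the list the lowest of these, 7 in female and 3 in male soleus, are near those of all genes given above. Gnl3, a nucleolar GTPase, rose in 5 of the 6, by 0.53 in female tibialis anterior (adjusted p = 7.37e-05, edgeR). Myc, the transcription factor that drives ribosome production in growing cells, passed in none of the 6 (log2 fold change -0.46 to 0.20). The mitochondrial ribosomal proteins serve the separate ribosome of that organelle. Of their 77 genes, 22 fell and 2 rose in female EDL (16% of all genes fell). In female tibialis anterior 10 fell and 2 rose (15.1% of all genes fell), and in female soleus 4 fell and 2 rose (9.48%). In tibialis anterior and soleus of females the share that fell was below that of all genes. In males 13 fell in EDL (6.27% of all genes fell), 13 in soleus (5.5%) and 1 in tibialis anterior (5.35%), and none rose.

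Of 20 genes of the TORC1 pathway and Myc partners, 8, 10 and 11 rose in female tibialis anterior, EDL and soleus (15.6%, 16% and 12.1% of all genes rose). In males 5, 7 and 4 rose (5.79%, 6.67% and 4.39% of all genes). They include genes known to restrain TORC1 or translation. The list also holds Mtor, Rptor, Rheb and Rps6kb1, and their changes and the falls in the list are not given here. Ddit4 (REDD1), an inhibitor of TORC1, rose in all 6 comparisons by 1.44 to 2.12, the translation repressor gene Eif4ebp1 by 0.78 to 1.39 and Sesn1, a sestrin that inhibits TORC1, by 0.77 to 1.20 (adjusted p at most 0.0328, edgeR). The mRNAs of ribosomal proteins and of these inhibitors were higher in the same group comparisons, and were not compared library by library. The counts hold no measure of translation.

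Markers of other cell types moved in the same muscles. For comparison, 15.1%, 16% and 9.48% of all genes fell in female tibialis anterior, EDL and soleus, and 15.6%, 16% and 12.1% rose. In males 5.35%, 6.27% and 5.5% of all genes fell. Of 6 tendon and fibroblast markers, 3 to 5 fell in each of the 6 comparisons, and their summed level went from 624.0 to 1060 CPM in Control to 405.1 to 532.5 CPM in Deficient female tibialis anterior. Of 6 macrophage markers 5, 5 and 6 fell in female tibialis anterior, EDL and soleus, where the sums were 43.6 to 73.2 and 27.4 to 51.6 CPM in tibialis anterior, and 0, 1 and 0 fell in males. Red cell markers fell in 2, 4 and 4 of 4 in females and in 0, 2 and 1 in males, and 2, 2 and 1 of 3 tested neutrophil markers rose in females. The summed endothelial markers overlapped between treatments in each comparison. The part of these cells in the ribosomal protein result was not tested.

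Rpl7l1 (chromosome 17, 46773907 to 46782672, minus strand) went the other way and depended on the time of day. In Control mice it was higher at ZT17, the dark phase, than at ZT05 in all 3 muscles, tested over both sexes together. In Deficient mice the test over both sexes did not detect this difference. Time was not tested within a sex. In EDL of Control females it was at 31.8, 32.6 and 33.8 CPM at ZT05 and at 43.98, 43.99 and 44.2 at ZT17. Deficient females had 27.7, 29.6 and 30.0 CPM at ZT05 and 31.8, 32.0 and 32.9 at ZT17, a smaller rise that was also without overlap. The Control ZT17 libraries lay above those of the other 3 groups without overlap.

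In soleus the Control males rose with time too, while the Deficient males overlapped between the times. Control males were at 34.2, 34.6 and 36.6 CPM at ZT05 and at 45.0, 47.2 and 50.0 at ZT17, while Deficient males were at 36.2, 37.9 and 38.2 and at 35.9, 36.5 and 41.4. Over both sexes the Rpl7l1 log2 difference of ZT17 over ZT05 in Control soleus was 0.39 ± 0.05 (adjusted p = 2.88e-05, edgeR), with 0.34 ± 0.06 in EDL (adjusted p = 0.000581) and 0.38 ± 0.08 in tibialis anterior (adjusted p = 0.00415). In Deficient mice it was 0.02, 0.02 and -0.06 (adjusted p 0.862, 0.908 and 0.725). The difference between these time effects passed in soleus (-0.37 ± 0.07, adjusted p = 0.0074) and missed the threshold in tibialis anterior (-0.44, adjusted p = 0.0532) and EDL (-0.32, adjusted p = 0.0565).

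Rpl7l1 was the only member to change with time in Control tibialis anterior and soleus, where 5.33% and 9.91% of all genes were higher at ZT17. In EDL, where 6.92% of all genes were higher, Rpl13a was called as well. In soleus it was also the only member whose treatment response differed by time (2.67% of all genes had a lower response at ZT17). Averaged over the times, Rpl7l1 fell in Deficient females by 0.31 in EDL (adjusted p = 0.00064), 0.23 in soleus (adjusted p = 0.00404) and 0.22 in tibialis anterior (adjusted p = 0.0433, edgeR). In males the differences were -0.07, -0.12 and 0.01 and did not pass. The female call in tibialis anterior held in 5 of 7 alternatives and in 4 of 15 fits with replicates or libraries left out. The female EDL call held in all of these fits, and the female soleus call in 6 of 7 and 14 of 15. Leaving out replicates with 1 number at a time, the Control time effect stayed past the threshold in all 3 fits of EDL and soleus and in 2 of 3 in tibialis anterior. The time difference in soleus passed in 1 of 3.

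**Figure D5:**
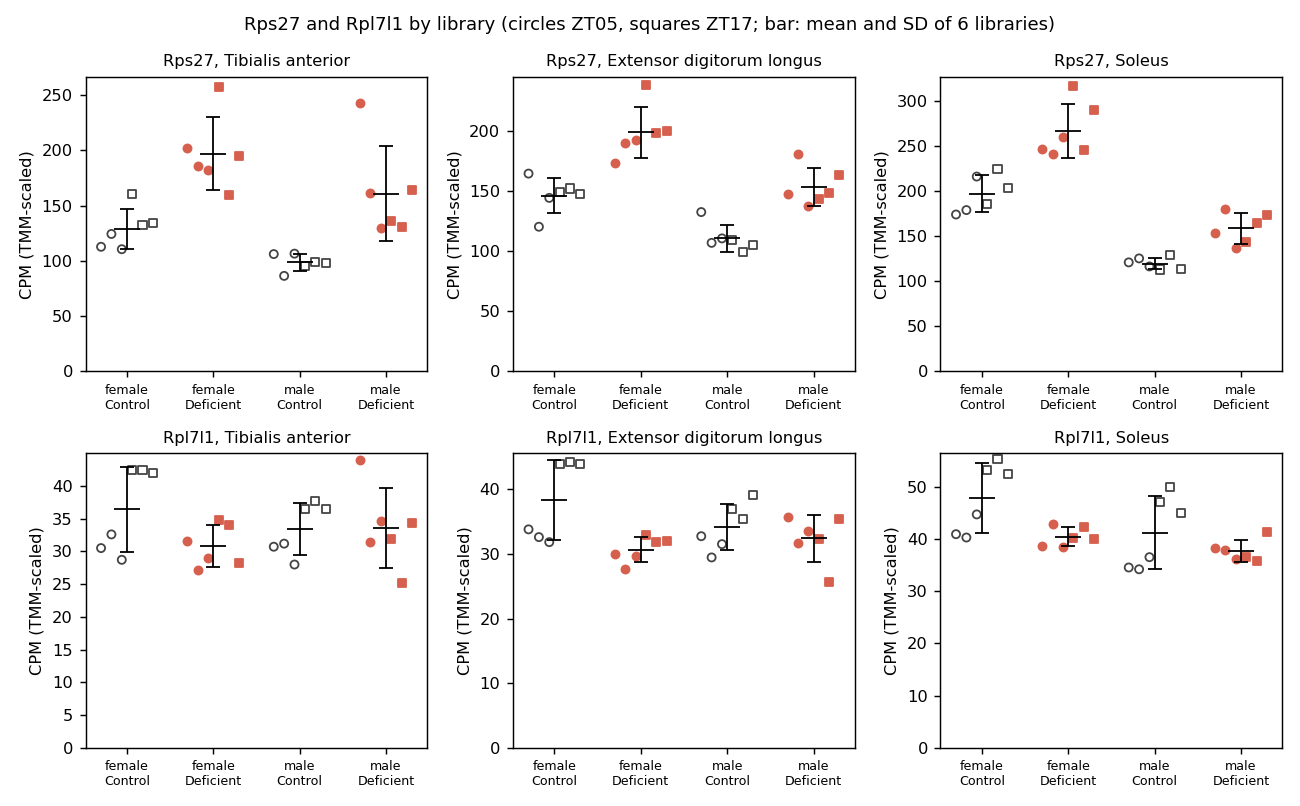
Level (CPM, TMM-scaled) of Rps27 (top) and Rpl7l1 (bottom) in each library of tibialis anterior, EDL and soleus, by sex and treatment. Circles are ZT05 and squares ZT17, open symbols Control and filled symbols Deficient, and bars are the mean and SD of 6 libraries. Deficient libraries are higher for Rps27 in each panel, except that the ranges touch in tibialis anterior of females. For Rpl7l1 the open squares of Control mice at ZT17 stand above the open circles.

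Outside lung, the test for time of day otherwise called few members. In Control mice 13 member and tissue pairs were higher and 45 lower at ZT17 over 19 tissues, and 44 of the 45 were in lung. In Deficient mice no pair of 1616 passed in edgeR (69 at an unadjusted p under 0.05, and 5 by DESeq2). In Control gastrocnemius all 86 tested members leaned higher at ZT17 (median 0.81), with none called in edgeR and 50 at an unadjusted p under 0.05. Shares of Control males there were 0.738% to 4.88% at ZT05 and 4.5% to 5.315% at ZT17. Gastrocnemius had 9 libraries of males 31 to 62 and 3 of males 73 to 94, and their part was not tested. Control lung had 44 of 85 members lower at ZT17, against 7.38% of all genes, with a median of -0.47. Rps4x, the X-linked small subunit gene, was at 945.8, 1124 and 1401 CPM in Control males at ZT05 and at 361.7, 423.5 and 544.2 at ZT17, but at 573.7 to 733.5 and 510.5 to 629.0 in Control females, with overlap. Over both sexes the Rps4x difference was -0.81 ± 0.16 (adjusted p = 0.00278, edgeR).

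The male lung libraries that carried this time difference came from males 31 to 62, whose mitochondrial and rRNA-like share was 33.2% to 65.9% against 2.25% to 3.93% in females. Without the libraries of replicate number 1 the count of 44 was 3, without number 2 it was 43 and without number 3 it was 7. The response to deficiency differed by time in 9 lung members, all higher at ZT17 (3.01% of all genes), among them Rps4x (0.88), Rpl4 (0.76) and Rpl3 (0.68). One member, Rps21, rose in male lung (1.85% of all genes).

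Liver, brown adipose tissue and kidney gave small numbers. In Control liver 7 members were higher at ZT17 (3.72% of all genes), led by Rplp2 (0.78) and Rpl38 (0.68). The treatment response was lower at ZT17 for 3 (1.39%): Rpl38 (-0.97), Rpl15 (-0.96) and Rps27a (-0.94), the gene that also encodes ubiquitin. Rpl38 was at 132.8 to 231.1 CPM at ZT05 and 399.2 to 516.8 at ZT17 in Control males, and at 17.6 to 26.2 and 18.9 to 22.0 CPM in Control females. In brown fat 4 of 84 members had a lower response at ZT17, a share below that of all genes (6.41%): Rpl10a (-0.92), Rpl10 (-0.89), Rpl29 and Rps2. The only brown fat male of the higher numbers, Deficient ZT17 replicate 3, had a share of 1.25% against 2.52% to 6.80% in the other males, and without it 6 members passed (Rpl10a -0.76, Rpl10 -0.74). Low-count Rpl13a was higher at ZT17 in Control brown fat (0.95, 7.61% of all genes) and kidney (0.45, 6.22%), and Rpl3 was lower in Control kidney (-0.33, 7.5%).

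Male liver had 10 members higher in Deficient mice (4.51% of all genes), among them Rpl10a (0.80), Rps21 (0.76) and Rpl4 (0.76). Rpl4 went from 60.3, 68.8 and 100.5 CPM to 88.2, 107.9 and 226.2, with overlap. Mitochondrial and rRNA-like genes took 79.2% to 95.3% of the counts in these libraries. With male libraries fitted alone no member was called, and with library totals outside those genes 1 was. Male gastrocnemius tendon had 26 of 86 members higher (4.22% of all genes) with a median of 0.68, led by Rps27 (1.12), Rps20 (1.09) and Rplp2 (1.03), the last from 75.1, 206.4 and 273.6 CPM to 248.1, 352.5 and 697.3 with overlap.

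The tendon result depended on the animals in the fit. The 2 gastrocnemius tendon libraries of males 73 to 94, with shares of 1.77% and 1.85%, were both Control, and the other 10 male libraries had 3.50% to 6.36%. With a term for the number series 12 members rose, with males 31 to 62 only 7, and with males fitted alone none. Leaving out 1 library gave 57 without Control ZT05 replicate 2 and 66 without Control ZT17 replicate 2. It gave 8 without Control ZT05 replicate 3, 11 without Control ZT17 replicate 1 and 5 without Control ZT17 replicate 3, and 16, 2 and 11 without Deficient ZT05 replicate 1, Deficient ZT05 replicate 2 and Deficient ZT17 replicate 1. Of 5 liver markers, 4 were higher in Deficient male tendon, with a summed level of 2.11 to 23720 CPM (median 38.6) against 0.787 to 44.7 CPM (median 16.4) in Control. Their part in the result was not tested. Skeletal muscle markers in Control male tendon (median 84780 CPM) lay between those of Control male soleus (59560) and tibialis anterior (135500). The part of muscle in the tendon samples was not tested either.

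Kidney differed between the sexes. In Deficient males 13 of 86 members were lower and 2 higher, against 20.8% and 20.1% of all genes. Rpl7l1 fell from 77.1, 93.9 and 111.2 CPM to 60.9, 74.2 and 81.9 (-0.35 ± 0.08, adjusted p = 0.00129, edgeR), with ranges that overlapped. Rpl29 fell by 0.38 and Rpl27 by 0.32, and Rpl3l, at 1 to 7 CPM in this tissue, by 0.98. Rpl5, which with Rpl11 binds Mdm2, rose by 0.26, and the low-count gene Rps10 by 0.75. In females 2 members rose (4.76% of all genes): Rpl12, from 128.3 to 144.6 CPM in Control to 154.0 to 198.4 in Deficient (0.30), and Rpl10a (0.23).

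The female minus male response in kidney was above 0 for 15 members (8.11% of all genes), with Rpl3l at 1.35, Rpl36 at 0.91 and Rplp1 at 0.58. The kidney result depended on the scaling. With library totals outside mitochondrial and rRNA-like genes, 40 members were higher and 1 lower in males, against 41.9% and 7.65% of all genes, and the members' median moved from -0.08 to 0.19 while that of all genes moved from 0.03 to 0.29. The members' median was thus below that of all genes under both scalings. The sex difference then held 1 higher and 3 lower members. As shares of counts, Control and Deficient males had 1.84% to 2.16% and 2.01% to 2.40%.

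Uterus had 9 of 84 members lower in Deficient females and none higher, where 23.8% of all genes were lower. Rps27l, a p53-inducible paralog of Rps27, fell from 92.8, 116.7 and 141.7 CPM to 44.2, 59.7 and 88.1 without overlap (-0.90 ± 0.13, adjusted p = 0.000432, edgeR). Rpl7l1 fell from 115.5, 134.7 and 177.5 CPM to 73.5, 102.6 and 127.6 (-0.51), and Rpl27 by 0.53 and Rpl15 by 0.42. The other 5 were Rps4l, Rpl13a, Rpl41, Rps2 and Rplp0. With library totals outside mitochondrial and rRNA-like genes 2 rose and 3 fell, against 31.1% and 14.7% of all genes, and the median moved from -0.18 to 0.06 (all genes from -0.02 to 0.22). Rps27l, at -0.65 to -1.02, passed under all alternatives run for it.

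In ovary Rps27 rose from 490.0, 565.4 and 689.0 CPM to 659.0, 913.4 and 1098 (4.64% of all genes rose), and Rpl13a fell by 0.85 (5.78% fell). Male heart had Rps27 and Rpl21 higher (1.65% of all genes). Rpl21 went from 153.7, 169.5 and 179.1 CPM to 205.4, 223.8 and 276.9 without overlap (0.44 ± 0.10, adjusted p = 0.0184, edgeR). In the adrenal gland of females 84 of 85 members had a positive log2 fold change (median 0.36), but none passed in edgeR or DESeq2 (1 at an unadjusted p under 0.05). Its share of counts overlapped between Control and Deficient.

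Across the 35 comparisons of share by tissue and sex, the Deficient mean was higher in 30. The ranges did not overlap in 4 of the 35: male tibialis anterior, EDL and soleus, and female pituitary, where the share was 1.83% to 2.75% in Control and 2.84% to 3.36% in Deficient mice. In pituitary the members' median log2 fold change was -0.01 with TMM and none was called (3 at an unadjusted p under 0.05), but 0.30 with 6 called when library totals outside mitochondrial and rRNA-like genes were used, where the all-gene median was 0.27. With shares of all counts in place of those outside these genes, the sign of the difference changed in 4 of the 35 comparisons.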

How the data were processed

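The authors deposited raw gene counts for 419 libraries of 19 tissues, each from 500 ng of TRIzol RNA and a stranded poly(A) kit, per the labels. The submitters' processing notes name FastQC 0.11.9, cutadapt 4.1, STAR 2.7.10a, DESeq2 1.34.0 and the build GRCm38 (mm10); the counting tool is not given in the sources used here. A normalized table, equal to the counts times 1 constant per library, was not used. All 419 count columns matched a sample's label, and 0 were left unmapped.

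Each tissue was fitted in edgeR 4.0.16 (R 4.3.3) with TMM, the default filter on low counts (minimum 10) and a mean for each sex, treatment and time. Quasi-likelihood tests gave 6 contrasts: Deficient minus Control in each sex, ZT17 minus ZT05 in each treatment, and the differences of these responses by time and sex. P-values were adjusted (Benjamini-Hochberg) over all genes tested in the tissue, with a threshold of 0.05. CPM in treatment comparisons are TMM-scaled, and levels across tissues are CPM of the counts outside mitochondrial and rRNA-like genes. Scripts were tested on simulated data.

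Members and gene lists were chosen with earlier results of these data known. Genes were named by rule: the paralog pairs; in the 4 tissues with the most calls, per sex, the 3 largest called changes each way at a mean of at least 8 CPM and calls against the majority; members called in most tissues, over time and at the extremes of level; and the 3 largest differences by sex and time. Others (Rps10, Rpl24, Rplp1 and Rpl36 by G and C content, smaller calls in liver, kidney, heart and uterus, genes of the lists) were chosen after their values were seen. Positions are GRCm38 (GENCODE M21) and start windows are RefSeq GRCm38.p6. Alternatives were DESeq2 1.42.0, no filter, sexes fitted alone, a replicate block, a term for animal number series, and left-out replicates or libraries. Others were chosen after seeing the data: library totals outside mitochondrial and rRNA-like genes, the males 31 to 62 alone in gastrocnemius tendon, and fits without 1 library that stood apart in female gastrocnemius and male brown fat. Replicates carry different animal numbers, and the same animals gave several tissues. One member is not reported by name here.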

Additional observations from a re-analysis of the deposited data

Results flagged for a closer look

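Of 70 arms (tissue, sex and treatment) with 4 to 6 libraries, 2 had a library whose share of counts in the 89 genes stood apart from the rest by Dixon's test, which chance alone gives in about 1 of 20 groups. In gastrocnemius of Control females the library of ZT17 replicate 2 had 4.736%, while the other 5 had 1.73% to 2.13%. Mitochondrial and rRNA-like genes took 12.67% of its counts, within the range of the other female gastrocnemius libraries (11.42% to 44.19%). Without this library the members' median log2 fold change in female gastrocnemius was 0.14, against -0.24 with it. In uterus the library of Control ZT05 replicate 3 had 7.708%, the highest of the 12 uterus libraries.

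The response to deficiency differed between the sexes in kidney for 15 members (8.11% of all genes) by edgeR's test of the difference, with Rpl3l at 1.35, Rpl36 at 0.91 and Rplp1 at 0.58 on the log2 scale (female minus male). All kidney males carried numbers 73 to 94, so sex and number series cannot be told apart, and the result depended on the scaling as given above.

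The response differed by time for 9 members in lung (3.01% of all genes, Rps4x 0.88 and Rpl4 0.76), 4 in brown adipose tissue (below the 6.41% of all genes, Rpl10a -0.92 and Rpl10 -0.89), 3 in liver (1.39% of all genes, Rpl38 -0.97, Rpl15 -0.96 and Rps27a -0.94) and 1 in soleus (2.67% of all genes, Rpl7l1 -0.37), each as the response at ZT17 minus that at ZT05. In brown fat the Rpl10 values of Deficient males were 209.6, 442.8 and 467.2 CPM at ZT05 and 93.7, 204.4 and 231.4 at ZT17, a wider spread than in Control males (200.9 to 239.5 and 266.9 to 315.5 CPM). The ZT17 group of Deficient males holds the only brown fat male of the higher numbers. Soleus is the only 1 of these tissues whose libraries all held under 20% mitochondrial and rRNA-like counts (11.1% to 17.4%).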

How the results depend on the processing

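None of the 80 named changes reversed under any alternative run. The members' median in female gastrocnemius reversed from -0.24 to 0.14 without Control ZT17 replicate 2. Of these 80, 48 passed in every alternative other than left-out libraries and 14 in those as well. With DESeq2 the calls over all tissues were 92 for time in Control, 5 for time in Deficient, 65 for the time difference and 42 for the sex difference (58, 0, 17 and 15 in edgeR), with 47 higher in male gastrocnemius tendon, 21 lower in male kidney and 33 for the kidney sex difference. Without the filter on low counts they were 23 for time in Deficient, 32 for the sex difference (9 in kidney), 12 in female soleus and 27 in male soleus. With the sexes fitted alone they were 10 in female soleus, 0 in male gastrocnemius tendon and 0 in male liver. With library totals outside mitochondrial and rRNA-like genes they were 4 for the sex difference (1 higher in kidney), 8 in female soleus, 10 in male gastrocnemius tendon, 1 in male liver, 1 lower in male kidney and 3 lower in uterus. Male gastrocnemius tendon gave 12 with a term for the number series and 7 with males 31 to 62. The cause was not tested.

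Replicate numbers did not pair the samples: over tissues the mean correlation of same-numbered deviations was -0.022 to 0.078. With the replicate block the calls were 44 for the time difference, 9 for the sex difference (9 in kidney) and 43 in male gastrocnemius tendon. Among the totals and tissue counts followed in this section, the others stayed within 1.5 times.

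Leaving out the replicates of 1 number at a time gave 17 to 71 calls over female and 38 to 137 over male tissues. It gave 9 to 59 for time in Control, 0 to 2 for time in Deficient and 0 to 13 for the time difference. For the sex difference it gave 0 to 3 (0 to 3 in kidney). With single libraries left out as well, members higher were 4 to 28 in tibialis anterior, 4 to 38 in EDL and 0 to 44 in soleus of females. In males they were 4 to 75, 1 to 54 and 0 to 65, with 0 to 66 in gastrocnemius tendon. In male liver, with replicate numbers only, they were 0 to 16. Members lower, also with replicate numbers only, were 0 to 12 in male kidney, 2 to 7 in uterus and 3 to 43 in lung over time. The lowest values came from fits without a replicate number, which hold fewer libraries.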

Other observations

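Of the other proteins of the small subunit whose genes lie outside the symbol rule, Rack1, a scaffold bound to the ribosome, rose in 5 of the 6 sex and muscle comparisons. Its log2 fold change was 0.25 in female EDL (adjusted p = 0.00498, edgeR's quasi-likelihood test), 0.27 in male EDL, 0.24 in female soleus, 0.27 in male soleus and 0.43 in male tibialis anterior, and 0.16 in female tibialis anterior (adjusted p = 0.163). Fau, whose product is cleaved from a ubiquitin-like fusion to give a small subunit protein, rose in female EDL (0.42), male soleus (0.37) and male tibialis anterior (0.51).

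In quadriceps males, 75 of 87 tested members had a positive log2 fold change (median 0.43), but edgeR and DESeq2 called none, with 20 at an unadjusted p under 0.05. Of the 3 quadriceps males with the higher numbers, whose shares were 1.32% to 1.91%, 2 were Control and 1 Deficient, and with a term for the number series the median was 0.14. In gastrocnemius females 82 of 86 were negative (median -0.24), again with none called by either tool and 1 at an unadjusted p under 0.05. This direction rests on Control ZT17 replicate 2, whose share of counts stood apart: without it 73 of 86 were positive (median 0.14).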
